A study of Mus musculus with 6 samples.

Results

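The triad is the junction at which a transverse tubule, an inward fold of the muscle fibre's surface membrane, meets the sarcoplasmic reticulum, the calcium store of the fibre. Its genes were examined here as 10 members: Cacna1s, Cacna2d1, Cacnb1, Cacng1, Stac3, Ryr1, Ryr3, Trdn, Jph1 and Jph2. All array probe sets whose sole gene symbol in the platform annotation is one of these were taken. This gave 31 of the 35557 probe sets in the table, and all 10 genes were found. Trdn has 19 of them, Cacna2d1, Jph1 and Jph2 have 2 each, and the other members have 1 each.

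Intensities came from 6 single-colour Affymetrix arrays of mouse tibialis anterior, a muscle of the lower leg. The arrays labelled MLC-SOCS-3 (n = 3) are, by their label, from MLC-SOCS-3 transgenic mice on C57Bl6J, and the controls (n = 3) are labelled as C57Bl6J mice. Animals of both groups were 11 weeks old and had been starved for 6 h. The labels do not spell out MLC and give neither the founder line nor the sex, and nothing in them says that the replicates come from separate animals. The p-values below therefore cover only array-to-array spread within a group, part or all of which could be technical.

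All values are log2 intensities made by RMA, which corrects background, equalises the arrays and gives 1 value per probe set. Groups were compared with limma's moderated test across all 35557 probe sets, with Benjamini-Hochberg adjustment, and differences are MLC-SOCS-3 minus control. Socs3, the gene of the transgene, measured by probe set 10393449, read 7.07, 7.12 and 7.25 on the arrays labelled MLC-SOCS-3, against 7.37, 7.41 and 7.43 on the control arrays (difference -0.26, limma adjusted p = 0.80). Its other probe set also measured lower, with a difference of -0.22 (adjusted p = 0.82). Socs3 was thus not higher where the label names the transgene. The submitters' design text states that in earlier work tibialis anterior had strong expression from the transgene. The sources used here do not say whether its probes lie in the transgene, so the groups are called as labelled and every direction below is that of the labels. The tissue label was matched by fibre markers such as Acta1 (14.57, 14.62 and 14.57 on the MLC-SOCS-3 arrays and 14.62, 14.59 and 14.57 on the control arrays). Of the 5 heart genes measured, Tnni3, Nppa and Myl7 averaged below the median probe set (5.99), Myh6 averaged 6.06, and Myl4, the atrial light chain, read 8.26 to 8.54 on the 6 arrays. Some marker lists differed between the groups in the same direction for all of their genes. The mean of 4 fat cell markers was 6.80 to 6.92 on the MLC-SOCS-3 arrays and 6.51 to 6.64 on the control arrays. The mean of 4 tendon markers was 7.37 to 7.43 on the MLC-SOCS-3 arrays and 7.502 to 7.69 on the control arrays, and that of 3 Schwann cell markers was 5.96 to 6.08 on the MLC-SOCS-3 arrays and 6.11 to 6.18 on the control arrays. The 5 fibroblast and 5 macrophage markers, given beside Trdn below, all had positive differences. The 8 slow fibre markers all had negative ones (median -0.14), with overlapping list means of 7.57 to 7.72 on the MLC-SOCS-3 arrays and 7.67 to 7.92 on the control arrays. No gene of these lists passed the test, and their part in the triad values was not tested. One array, MLC-SOCS-3 replicate 2, stood apart for Trdn, and the Trdn values are given with and without it.

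Excitation-contraction coupling turns a muscle action potential into calcium release. The voltage sensor Cav1.1 in the tubule membrane is mechanically coupled to the ryanodine receptor RyR1 in the membrane of the store, and its movement opens that release channel. Junctophilins hold both membranes together, triadin anchors the calcium-binding protein calsequestrin at the release channel, and the adaptor Stac3 is needed for the coupling itself. Loss of Cav1.1, RyR1 or Stac3 in mice leaves skeletal muscle paralysed.

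Both channels at the core of the junction are shown here by the bases upstream of their start sites, with Jph2 as the example of a structural protein. Sequences are from RefSeq on GRCm38.p6, each covering the 250 bases before the annotated start and read 5′ to 3′ on the gene's strand. Capitals mark E-boxes (CANNTG), the letters bound by the MyoD family of muscle transcription factors. The windows are chr7:29125152-29125401 on the minus strand for Ryr1, chr1:136052561-136052810 on the plus strand for Cacna1s and chr2:163397994-163398243 on the minus strand for Jph2.
Ryr1: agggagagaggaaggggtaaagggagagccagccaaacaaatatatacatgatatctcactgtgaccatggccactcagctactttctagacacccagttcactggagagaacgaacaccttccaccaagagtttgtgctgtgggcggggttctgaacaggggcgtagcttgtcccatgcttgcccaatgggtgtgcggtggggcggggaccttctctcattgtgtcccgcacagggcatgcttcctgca
Cacna1s: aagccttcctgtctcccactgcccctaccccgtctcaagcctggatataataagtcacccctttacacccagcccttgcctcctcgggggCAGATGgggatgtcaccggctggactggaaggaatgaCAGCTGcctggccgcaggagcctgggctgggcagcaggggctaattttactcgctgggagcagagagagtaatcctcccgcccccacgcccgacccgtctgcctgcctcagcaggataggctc
Jph2: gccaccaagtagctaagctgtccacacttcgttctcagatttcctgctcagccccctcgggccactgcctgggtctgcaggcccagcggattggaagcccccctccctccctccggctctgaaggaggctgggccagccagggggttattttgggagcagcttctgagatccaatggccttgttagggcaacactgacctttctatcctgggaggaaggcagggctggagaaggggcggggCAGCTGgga

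An E-box reads the same on both strands, as does the STAT motif TTCNNNGAA, which was searched because SOCS-3 is an inhibitor of JAK-STAT signalling. The Cacna1s window holds 2 E-boxes, beginning 160 and 123 bases before the start, and the Jph2 window 1, beginning 9 bases before it. Neither motif is in the Ryr1 window. Upstream windows were matched for 5 of the 10 members (Ryr1, Cacna1s, Cacna2d1, Cacnb1 and Jph2), 7 windows in all. TTCNNNGAA is in none of the 7, against 7.02% of the 32841 windows in the whole table, and CANNTG is in 66.2% of those. The windows not printed hold 0 E-boxes for Cacna2d1 and for the first Cacnb1 start, and 1 for the second Cacnb1 start. The second Jph2 window overlaps the printed one and holds the same E-box. Whether E-boxes are more frequent in the members than in the whole table was not tested. These are matches of letters, not measurements of binding.

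No probe set of a triad gene passed the test between the groups. Of the 31 probe sets, 0 were called at an adjusted p under 0.05, and the table as a whole gave 0 calls (0%). At an unadjusted p under 0.05 the count was also 0 of 31, against 5.92% of all probe sets. Differences had a median of -0.046 over the 10 genes, taking the brightest probe set of each, and of -0.016 over all 19938 genes. Tissue was assayed whole, so fewer fibres and less transcript per fibre cannot be told apart.

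For 4 of the 31 probe sets the groups did not overlap. On the arrays labelled MLC-SOCS-3, 1 of them was higher than in the controls, against 5.04% of all probe sets, and 3 were lower, against 6.76%. The first was a probe set of Cacna2d1, and the others were Stac3 and 1 probe set each of Jph1 and Jph2. With 3 arrays a group, an exact two-sided permutation test cannot go below p = 0.1, so separation is given as a description.

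**Figure D1:**
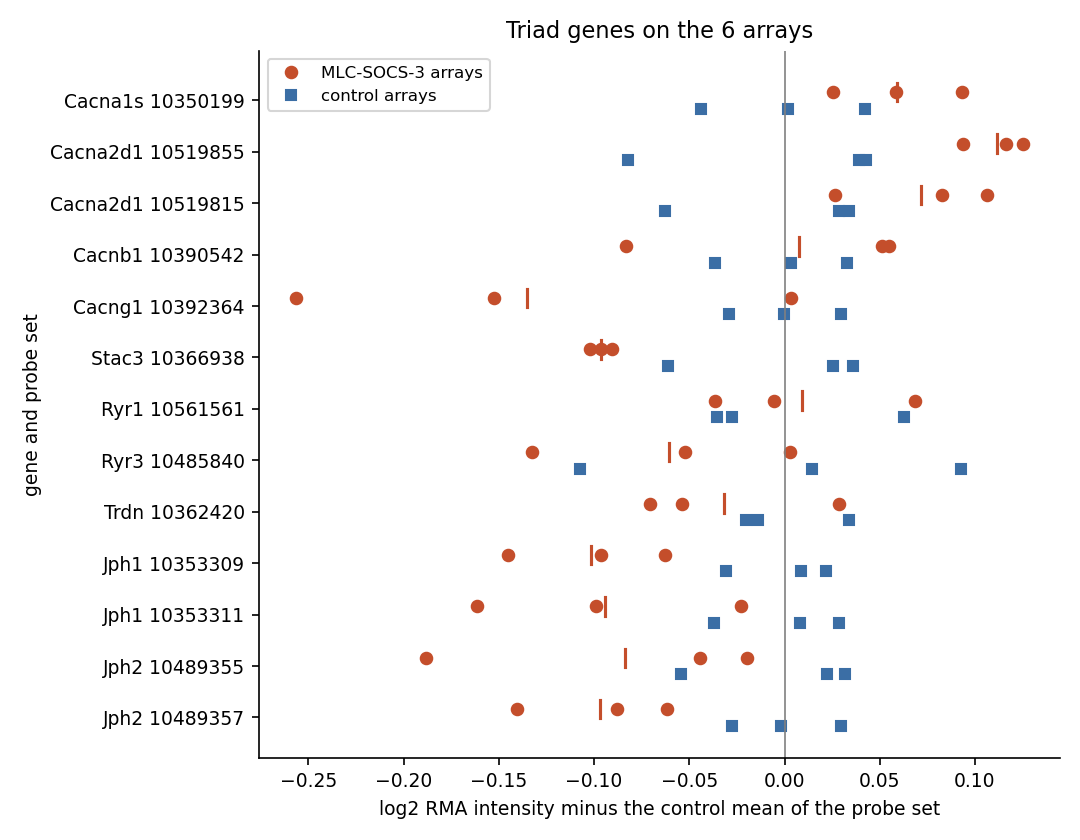
Log2 intensity of each array minus the control mean of that probe set, for the 12 probe sets outside Trdn and the brightest of Trdn. Circles are the arrays labelled MLC-SOCS-3 with their mean as a vertical tick, and squares are control arrays. Stac3, Jph1 10353309 and Jph2 10489357 lie left of all their controls and Cacna2d1 10519855 lies right of them.

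The voltage sensor complex gave values on both sides of 0. Cacna1s (probe set 10350199, chromosome 1), the pore and voltage-sensing subunit of Cav1.1, read 12.35, 12.32 and 12.29 on the MLC-SOCS-3 arrays, against 12.22, 12.30 and 12.26 on the control arrays. The top control lay within the MLC-SOCS-3 values, and the difference was 0.059 (95% interval -0.092 to 0.21, limma adjusted p = 0.90). Cacna2d1 (chromosome 5), the α2δ subunit that supports traffic of the channel to the membrane, read 12.05, 12.04 and 12.02 on the MLC-SOCS-3 arrays with probe set 10519855, against 11.84, 11.97 and 11.97 on the control arrays. Here the groups were apart, but the difference of 0.11 (-0.049 to 0.27) had an adjusted p of 0.86. Control replicate 1 lay below the other control arrays, and without it the difference was 0.071. Its other probe set, 10519815, read 11.41, 11.43 and 11.35 on the MLC-SOCS-3 arrays and 11.26, 11.36 and 11.35 on the control arrays. That pair of groups overlapped, with a difference of 0.072 (-0.086 to 0.23).

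The remaining subunits did not share a direction. Cacnb1 (10390542, chromosome 11), the intracellular β1 subunit, without which the sensor does not reach the triad, read 10.32, 10.32 and 10.18 on the MLC-SOCS-3 arrays, against 10.23, 10.30 and 10.27 on the control arrays. The control values lie inside the MLC-SOCS-3 range, and the difference was 0.0076 (-0.16 to 0.18). Cacng1 (10392364, chromosome 11), the γ1 subunit, which damps the calcium current in mouse muscle, read 11.84, 11.58 and 11.69 on the MLC-SOCS-3 arrays and 11.81, 11.87 and 11.84 on the control arrays. MLC-SOCS-3 replicates 2 and 3 were below every control and replicate 1 was among them. The SD was 0.13 for the MLC-SOCS-3 arrays and 0.029 for the control arrays (n = 3 each). Its difference of -0.14 (-0.34 to 0.071, adjusted p = 0.86) rested on single arrays: it was -0.075 without MLC-SOCS-3 replicate 2 and -0.20 without MLC-SOCS-3 replicate 1.

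Stac3 (10366938, chromosome 10), the adaptor that links the sensor to the release channel, was the tightest of the 31 within the MLC-SOCS-3 group. It read 10.66, 10.65 and 10.65 there (10.654 ± 0.0059, SD, n = 3), against 10.79, 10.78 and 10.69 on the control arrays (10.750 ± 0.053, SD, n = 3). All 3 MLC-SOCS-3 values were below all 3 control values, the nearest control being replicate 3. The difference of -0.096 (-0.25 to 0.054) did not pass, with an adjusted p of 0.86.

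Neither release channel differed beyond the spread of its arrays. Ryr1 (10561561, chromosome 7), the calcium release channel of skeletal muscle, read 12.96, 12.85 and 12.88 on the MLC-SOCS-3 arrays, against 12.86, 12.95 and 12.85 on the control arrays. The groups covered the same range, and the difference was 0.0090 ± 0.067 (SE), with a 95% interval of -0.15 to 0.17. Ryr3 (10485840, chromosome 2), an isoform that accompanies Ryr1 in immature muscle and in a few adult muscles such as the diaphragm, read 5.11, 5.05 and 4.97 on the MLC-SOCS-3 arrays and 5.20, 5.12 and 4.999 on the control arrays. Its mean of 5.08 lies below the median probe set of the table (5.99), where folds on the RMA scale are compressed. The difference was -0.061 (-0.26 to 0.13, adjusted p = 0.92).

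Both junctophilins, which tether the tubule to the store through a membrane anchor and lipid-binding repeats, measured lower on the MLC-SOCS-3 arrays with both of their probe sets. Jph1 (chromosome 1), the isoform found mainly in skeletal muscle, read 12.47, 12.44 and 12.39 on the MLC-SOCS-3 arrays with probe set 10353309, against 12.55, 12.50 and 12.54 on the control arrays. These groups did not overlap, and the difference was -0.10 (-0.25 to 0.047, adjusted p = 0.86). With 10353311 it read 12.17, 12.09 and 12.03 on the MLC-SOCS-3 arrays, against 12.20, 12.15 and 12.22 on the control arrays. MLC-SOCS-3 replicate 1 then lay above control replicate 2, and the difference was -0.094 (-0.26 to 0.069).

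Jph2 (chromosome 2), the isoform that heart and skeletal muscle share, read 11.31, 11.28 and 11.23 on the MLC-SOCS-3 arrays with probe set 10489357, against 11.40, 11.37 and 11.34 on the control arrays. The groups were apart, and the difference of -0.097 (-0.24 to 0.052) had an adjusted p of 0.86. With 10489355 it read 11.45, 11.43 and 11.29 on the MLC-SOCS-3 arrays, against 11.50, 11.42 and 11.51 on the control arrays. Those values overlapped, with a difference of -0.084 (-0.26 to 0.097). None of the 4 junctophilin probe sets passed the test. Without MLC-SOCS-3 replicate 3 the difference of Jph2 10489355 was -0.032 and that of Jph1 10353311 was -0.061, against -0.075 for Jph2 10489357 and -0.080 for Jph1 10353309. Probe sets of 1 gene on the same arrays are not independent of each other.

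**Figure D2:**
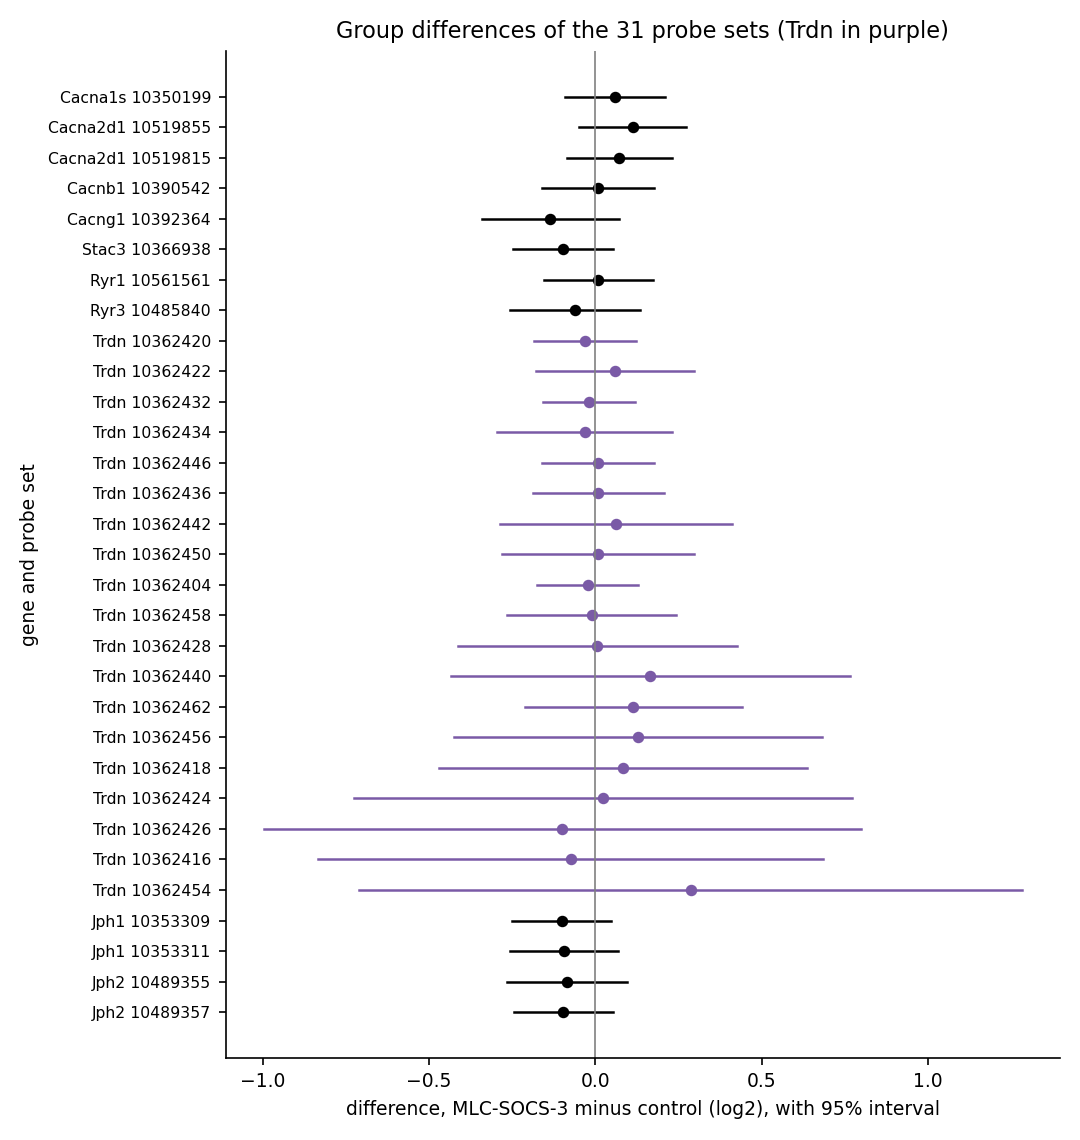
Group difference of each of the 31 probe sets (MLC-SOCS-3 minus control, log2, points) with its 95% interval from limma (lines), Trdn in purple. All intervals include 0, those outside Trdn stay between -0.34 and 0.27, and those of the dimmer Trdn probe sets reach -0.997 and 1.28.

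Over the 12 probe sets of the members outside Trdn, the 95% intervals ran no further than -0.34 and 0.27 on the log2 scale. The widest was that of Cacng1. These intervals rest on array-to-array spread within a group, part or all of which could be technical. That of Ryr3 lies at a level where folds are compressed. For the 19 probe sets of Trdn the intervals were much wider, up to -0.997 on one side and 1.28 on the other. Without 1 array, MLC-SOCS-3 replicate 2, the intervals of Trdn ran from -0.88 to 0.39.

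Trdn (chromosome 10) encodes triadin, the membrane protein of the junctional store that binds the ryanodine receptor and calsequestrin. Its brightest probe set, 10362420, read 12.82, 12.92 and 12.83 on the MLC-SOCS-3 arrays, against 12.87, 12.92 and 12.87 on the control arrays. These values overlap and differ by -0.032 (-0.19 to 0.12, adjusted p = 0.96). Probe set 10362404, the one annotated with 5 transcript accessions where the other 18 have 1, gave -0.023 (-0.18 to 0.13). Across the 19 the differences lay between -0.10 and 0.29 with a median of 0.0085, 12 positive and 7 negative, and the groups overlapped for all 19.

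Within the MLC-SOCS-3 group, however, replicate 2 read highest of the 6 arrays for 16 of the 19 Trdn probe sets. That array is the highest for 16.5% of all probe sets in the table and for 2 of the 12 other triad probe sets. Such a share was not particular to Trdn: among the 78 genes with at least 5 probe sets, 7 others had an equal or higher share highest on that array, among them Rps12 with 14 of 14. Several Rps12 probe sets, and some of other genes among the 78, repeat the same values. Their counts therefore stand for fewer separate readings. Probe set 10362424 read 9.54, 10.64 and 9.53 on the MLC-SOCS-3 arrays, against 9.80, 9.98 and 9.87 on the control arrays. Probe set 10362426 read 7.24, 8.50 and 7.18 on the MLC-SOCS-3 arrays, against 7.51, 7.85 and 7.87 on the control arrays. In both, replicate 2 stood above every other array and MLC-SOCS-3 replicates 1 and 3 below every control. Probe set 10362440 read 10.82, 11.70 and 10.88 on the MLC-SOCS-3 arrays, against 10.82, 11.10 and 10.99 on the control arrays. At the other end, MLC-SOCS-3 replicate 3 read lowest of the 6 arrays for 13 of the 19 Trdn probe sets. It was also lowest for 7 of the 12 other triad probe sets. The share of all probe sets that were lowest on it was not counted.

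**Figure D3:**
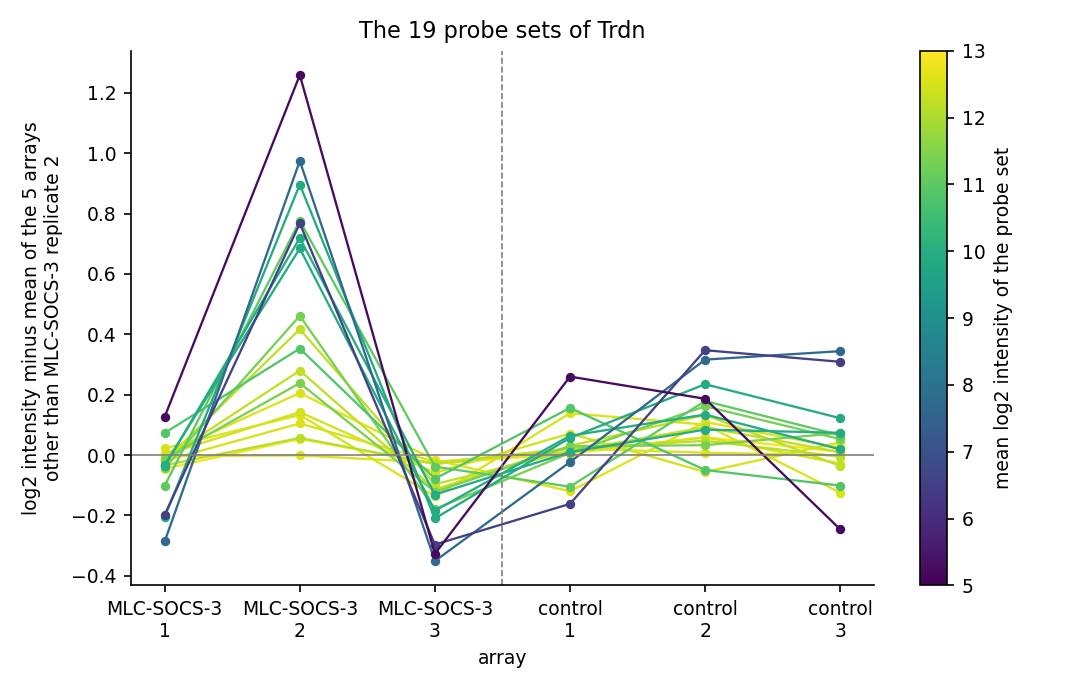
Each line is 1 of the 19 Trdn probe sets, plotted as log2 intensity minus its mean over the 5 arrays other than MLC-SOCS-3 replicate 2, coloured by mean level. The arrays labelled MLC-SOCS-3 are left of the dashed line and the controls right of it, and the lines join values of 1 probe set without implying an order of arrays. MLC-SOCS-3 replicate 2 lies up to 1.26 above the mean of the other 5 arrays, the dimmer probe sets furthest.

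The size of this deviation went with the level of the probe set. For the 9 Trdn probe sets with a mean above 12, MLC-SOCS-3 replicate 2 differed from the mean of the other 5 arrays by -0.0012 to 0.42, median 0.13. The 7 between 9 and 12 deviated by 0.24 to 0.90, median 0.68, which is 1.18-fold to 1.86-fold. The 3 below 9 deviated by 0.77 to 1.26, or 1.70-fold to 2.39-fold. Among all 4548 probe sets of the table between 9 and 12, only 0.220% reached a deviation of 0.68 on that array, and among all 30447 below 9, 1.01% reached the median of those 3 (0.97). Above 12, 6.94% of 562 reached 0.13. These shares count the Trdn probe sets too, and both the array and the thresholds were taken from the Trdn values. The shares are therefore a description and not a test. In 14 of the 19 the deviation exceeded the whole range of the other 5 arrays. The sources used here give no probe positions, so it was not tested which exons or isoforms the dimmer probe sets read.

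**Figure D4:**
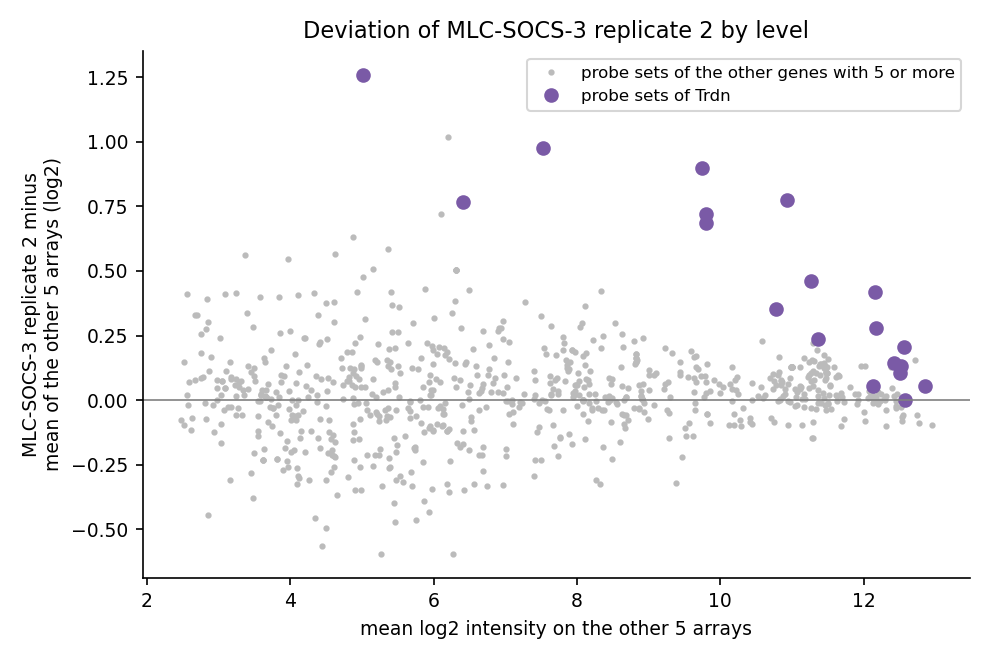
Deviation of MLC-SOCS-3 replicate 2 from the mean of the other 5 arrays (log2) against that mean, for each probe set of the 78 genes that have 5 or more. Purple points are the 19 of Trdn and grey points those of the other genes. The Trdn points above 12 lie between -0.0012 and 0.42, and the deviation reaches 1.26 at the lowest level.

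Trdn was set beside the 78 genes with at least 5 probe sets, since a gene read many times shows an array's deviation repeatedly. Over its 19 probe sets, the median deviation of MLC-SOCS-3 replicate 2 was 0.35, rank 1 of the 78 by size, with a median size of 0.060 for the other genes. Rps12, highest on that array with all of its probe sets, deviated by a median of 0.13. Unc13c followed at 0.24 with 7 probe sets. On the other arrays, only Adamts9 among the 78 deviated by more than the 0.35 of Trdn. It stood at 0.65 over 6 probe sets on MLC-SOCS-3 replicate 3, where Trdn was at -0.19 and ranked 4 of 78. On control replicate 3 it stood at -0.42. These genes were named after their values were seen.

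**Figure D5:**
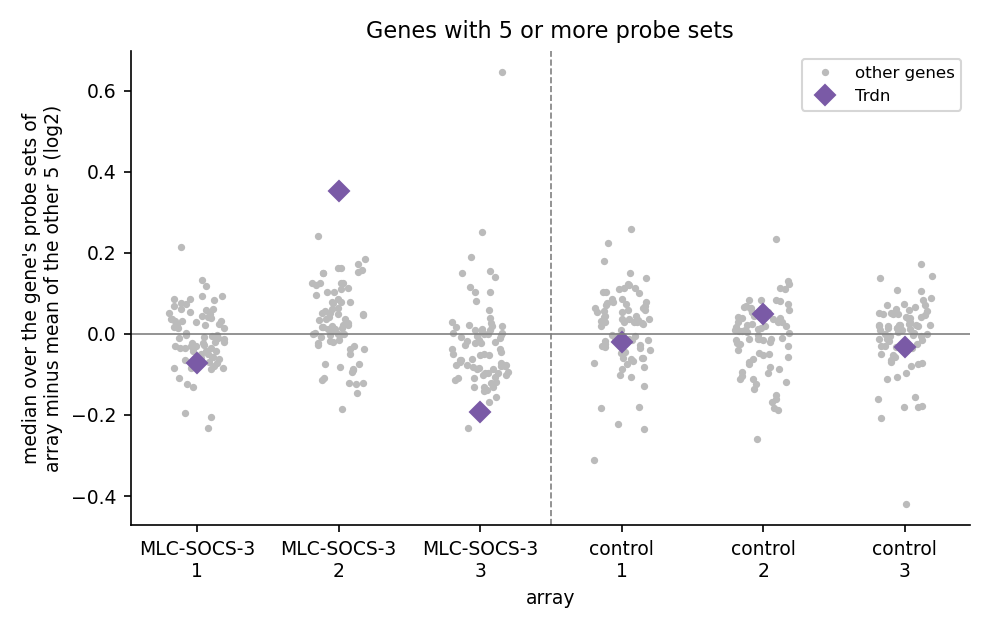
Median deviation of each array from the mean of the other 5 arrays (log2) over the probe sets of a gene, for the 78 genes with 5 or more. Diamonds are Trdn and grey points the other genes, with the arrays labelled MLC-SOCS-3 left of the dashed line. Trdn lies at 0.35 on MLC-SOCS-3 replicate 2 and between -0.19 and 0.049 elsewhere, while one other gene reaches 0.65 on MLC-SOCS-3 replicate 3.

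The sign of 12 of the 19 Trdn differences turned on MLC-SOCS-3 replicate 2, the other 7 being negative with all 6 arrays too. Without MLC-SOCS-3 replicate 2, the differences of all 19 Trdn probe sets were negative, from -0.53 to -0.0044 with a median of -0.11, and 11 of the 19 had MLC-SOCS-3 values below all control values, against 11.5% of all probe sets when that array is left out. None passed limma's test (adjusted p from 0.92 to 0.999), and 2 had an unadjusted p under 0.05, against 5.29% of all probe sets. The largest was 10362426 at -0.53 (-0.88 to -0.18) and the one with the smallest p 10362424 at -0.34 (-0.56 to -0.13). The 19 are probe sets of 1 gene on the same arrays and are not independent of each other. Their counts therefore cannot be weighed against shares of all probe sets. Leaving out the array that read highest for most of them also lowers their MLC-SOCS-3 means by construction. The array was left out after it had been seen to stand apart, so these values describe the other 5 arrays and do not replace the comparison of all 6. Without MLC-SOCS-3 replicate 3 instead, the median over the Trdn probe sets was 0.12, against 0.0085 with all 6 arrays.

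Other measures of MLC-SOCS-3 replicate 2 were read beside this. Its median over all probe sets was 5.98, the lowest of 6 between 5.98 and 6.04. The mean of 5 fibroblast markers was 10.56 on that array, 10.20 and 10.42 on the other MLC-SOCS-3 arrays and 10.17 to 10.22 on the control arrays, and 3 of the 5 were highest on it. The mean of 5 macrophage markers was 6.42 on it, 6.14 and 6.49 on the other MLC-SOCS-3 arrays and 6.01 to 6.18 on the control arrays. Muscle fibre markers did not set it apart (mean of 6 genes 14.04 on it, 14.01 and 14.02 on the other MLC-SOCS-3 arrays and 14.02 to 14.05 on the control arrays). Whether these bear on the Trdn values was not tested.

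A further 23 genes that act at the triad or feed it with calcium were looked up, and 21 had a probe set of their own. None passed the test, and 1 had an unadjusted p under 0.05, Cav3, against 5.92% of all probe sets. Of the 21, 7 differences were positive and 14 negative, with a median of -0.023, beside -0.016 over all genes. Cav3, the muscle caveolin that takes part in forming transverse tubules, read 8.76, 8.87 and 8.81 on the MLC-SOCS-3 arrays, against 9.03, 8.96 and 8.95 on the control arrays. The groups were apart, as they were on the lower side for 6.76% of all probe sets. The difference was -0.17 (-0.33 to -0.0093, limma adjusted p = 0.83). Bin1, a membrane-bending protein of the tubules, gave -0.095 ± 0.064 (SE), and Orai1, the calcium entry channel of the surface membrane, gave -0.12 ± 0.076. On the positive side were Homer1, a scaffold that binds ryanodine receptors (0.16 ± 0.083), Asph, which gives rise to junctin (0.076 ± 0.058), and Mtm1, a lipid phosphatase needed for triad structure (0.11 ± 0.085).

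Casq2, the calsequestrin that is mainly cardiac and slow-fibre and a binding partner of triadin, read 8.61, 8.96 and 8.37 on the MLC-SOCS-3 arrays, against 8.54, 8.55 and 8.49 on the control arrays. Its difference was 0.12 (-0.25 to 0.49), and MLC-SOCS-3 replicate 2 again stood highest, 0.45 above the mean of the other 5 arrays. One of the Homer2 probe sets, 10565152, showed the same array highest, at 8.27 against 7.84 and 7.67 on the other MLC-SOCS-3 arrays and 7.48 to 7.77 on the control arrays, while the other, 10565156, deviated by 0.041. Both genes were named after their values were seen. Of the 21 genes of the list, 7 were highest and 3 lowest on that array. It was highest for 16.5% of all probe sets.

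Paralogs of the members that serve mainly in heart, brain or other tissues were measured for 14 of 16 genes, and 12 of the 14 lay below the median probe set. None passed the test. The median difference was -0.059 (-0.016 over all genes), with 5 positive and 9 negative. Against 5.92% of all probe sets, 1 of the 14 had an unadjusted p under 0.05. This was Cacng7, a relative of Cacng1 known from brain, which read 8.04, 7.94 and 7.997 on the MLC-SOCS-3 arrays, against 8.12, 8.19 and 8.14 on the control arrays (difference -0.16, -0.31 to -0.0056, adjusted p = 0.83). Ryr2, the cardiac release channel, read 5.38, 5.15 and 5.34 on the MLC-SOCS-3 arrays and 5.30, 5.37 and 5.25 on the control arrays, so the groups overlapped. Cacnb4 (-0.15 ± 0.11, SE) and Stac (-0.099 ± 0.075) were lower, and Cacnb2 (0.14 ± 0.11), Cacna2d2 (0.11 ± 0.072) and Cacna1c (0.094 ± 0.087), the pore of the cardiac channel, were higher, none past the test.

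Likeness across the 6 arrays was described by Pearson's r over the 11408 genes above the median level, each by its brightest probe set. Ryr3 lies below that level and was left out. For Trdn the probe set is 10362420, on which MLC-SOCS-3 replicate 2 deviated by only 0.054 from the mean of the other 5 arrays. The genes closest to Ryr1 were Ddx28 (r = 0.99), Agap3 (0.99) and Med12 (0.98), with 71 genes above 0.9. Closest to Cacna1s were Tmem63b (0.99), Nfia (0.99) and Slc25a27 (0.99), with 67 above 0.9. Among the members, r with Cacna1s was 0.91 for Cacna2d1, 0.63 for Cacnb1, 0.62 for Ryr1, -0.11 for Trdn, -0.15 for Cacng1, -0.27 for Jph2, -0.56 for Jph1 and -0.59 for Stac3. With Ryr1 the members ranged from -0.19 (Trdn) to 0.62 (Cacna1s). These r values rest on 6 points that share normalization and hold both groups, and with this many genes values near 1 arise easily.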

How the data were processed

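The authors deposited 1 log2 intensity per probe set and array. The submitters' processing notes name RMA and Affymetrix Expression Console, with no version. The log2 values were used as deposited. They carry no detection calls, and having 3 arrays a group limits the precision. No pair of arrays shared more than 36 identical values. Symbols came from the platform annotation (21789 probe sets with 1 symbol, 1621 with several, 12147 unlisted), updated through Entrez identifiers for the further lists. The brightest probe set stood for a gene in lists. Groups were compared with limma 3.58.1 in R 4.3.3 (lmFit, eBayes, two-sided), adjusted over all probe sets, and the script was tested on simulated data. The naming rule took all members, Socs3, and up to 3 genes per direction with the smallest p from each list. Members and lists were chosen with earlier results of these data known. Alternatives covered centring, quantile normalization, the replicate block, trended moderation, probe set filters, probe set averaging and leaving out each array. Promoter windows were read from RefSeq.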

Additional observations from a re-analysis of the deposited data

How the results depend on the processing

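No member was called under the alternatives run. For the 12 probe sets outside Trdn and the brightest of Trdn, 155 differences were recomputed. Of these, 148 kept their sign, and the lowest adjusted p from limma was 0.74. The replicate block, trended moderation and the probe set filters leave each difference as it is, so no sign could change there. Runs without 1 array share most of their arrays. The 7 that changed sign belong to Cacnb1 and Ryr1, both near 0: Cacnb1 gave -0.0039 after quantile normalization over again and -0.016 to 0.053 without 1 array, and Ryr1 -0.021 to 0.040 without 1 array. Leaving out 1 array gave 1 to 4 member probe sets with separate groups on the higher side and 3 to 14 on the lower side, the 14 without MLC-SOCS-3 replicate 2, the 4 without MLC-SOCS-3 replicate 3, and 5 without MLC-SOCS-3 replicate 1, control replicate 2 or control replicate 3. Over all probe sets the shares were then 9.11% to 10.3% higher and 10.5% to 13.9% lower (11.5% without MLC-SOCS-3 replicate 2), so that counts of 5 of 31 or fewer are near those shares. Of the 14, 11 are probe sets of Trdn and not independent of each other. Over all probe sets, leaving out 1 array gave 0 to 1 calls, the 1 without control replicate 2. The median over the Trdn probe sets, an alternative chosen after seeing the data, ran from -0.11 to 0.12 without 1 array. Among paralogs above the median level, where 2 genes remain, the median was -0.11. With the replicate number as a block, 0 member probe sets were called. Deviations of same-numbered arrays correlated at -0.026, -0.018 and -0.043, and those of differently numbered arrays at -0.038 to 0.064. These correlations show no pairing by number, but with 3 arrays a group they cannot exclude a shared litter, batch or day. The absence of detection calls and 3 arrays a group limit what small differences can show.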
